A study of Mus musculus with 6 samples.

Results

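Intergenic accessible regions lying between 1 and 50 kb from a transcript start were described in the Beko line of mouse progenitor T cells. The regions came from 1 ATAC-Seq peak list that was merged over 6 libraries, 3 from cells given DAPT, a γ-secretase inhibitor (GSI) that blocks Notch cleavage, and 3 from cells given the solvent DMSO, all for 24 h. The labels give a DAPT dose of 10 mg/ml, a unit that differs from the μg/ml of the study's methods. A peak was taken when it was autosomal, its centre lay in no annotated gene, its nearest edge was more than 1 kb and at most 50 kb from the nearest transcript start, and it was CpG-poor, which means an observed to expected CpG ratio below 0.6 or a GC content below 50%. These conditions were met by 7557 of the 32527 peaks, or 23.2%, and by 23.7% of the 31879 autosomal peaks. The CpG limit removed 352 of the 7909 peaks that met the conditions on position.

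The list holds no value per library and does not record whether a peak came from GSI or DMSO cells, so nothing below compares the treatments and no replicate error exists. Spread is given as the standard deviation over the 19 autosomes, and differences were tested with the exact two-sided signed-rank test over autosomes. The smallest p that this test allows is 3.81e-06. Peaks on 1 chromosome are not independent and all came from 1 cell line, so a p measures only how evenly a difference recurs across chromosomes.

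ATAC-Seq marks DNA that a transposase can reach, which outside genes is mainly DNA held open by bound transcription factors. Distal enhancers are bound by factors that define a lineage, in T-cell progenitors members of the E protein, RUNX, ETS, GATA and TCF/LEF families. RBPJ, the DNA-binding factor of the Notch pathway, binds TGGGAA and related words, and a pair of such words facing each other can bind a dimer of Notch complexes. CTCF, the factor that anchors chromatin loops and insulates domains, also keeps its sites accessible and acts in a manner that depends on the strand of its motif.

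Some of these sequences are shown here, as the + strand of build mm9. The first 4 are the central 200 bp of peaks near T-cell genes, with capitals marking 4 motif cores on either strand. The cores are the E-box CAGCTG and the E-box CACCTG, both bound by E proteins, the core AGGAAG of ETS factors and the core TGTGGT of RUNX factors. On the printed strand a core may therefore appear as its reverse complement. They were chosen, with their values known, to show how these cores lie together. Their centres lay 20054 bp upstream of Ets1, 7554 bp beyond the 3′ end of Ccr7, 12467 bp upstream of Cd8a and 45249 bp upstream of Lef1, all in intergenic sequence. For Lef1, a noncoding gene, AC114668.1, lay closer.
Ets1 upstream peak, chr9:32423652-32423851: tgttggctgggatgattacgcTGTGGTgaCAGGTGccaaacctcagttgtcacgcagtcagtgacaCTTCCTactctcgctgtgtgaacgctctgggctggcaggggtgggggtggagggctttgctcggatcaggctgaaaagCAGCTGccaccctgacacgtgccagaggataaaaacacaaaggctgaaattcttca
Ccr7 3′ peak, chr11:98997856-98998055: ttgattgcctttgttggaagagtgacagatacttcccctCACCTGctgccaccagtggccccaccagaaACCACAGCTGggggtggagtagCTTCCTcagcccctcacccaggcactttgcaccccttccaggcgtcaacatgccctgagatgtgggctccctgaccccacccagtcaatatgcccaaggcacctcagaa
Cd8a upstream peak, chr6:71310854-71311053: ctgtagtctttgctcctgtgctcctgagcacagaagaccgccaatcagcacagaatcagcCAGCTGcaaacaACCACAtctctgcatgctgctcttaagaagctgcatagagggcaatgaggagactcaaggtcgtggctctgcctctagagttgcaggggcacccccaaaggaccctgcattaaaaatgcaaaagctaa
Lef1 upstream peak, chr3:130768040-130768239: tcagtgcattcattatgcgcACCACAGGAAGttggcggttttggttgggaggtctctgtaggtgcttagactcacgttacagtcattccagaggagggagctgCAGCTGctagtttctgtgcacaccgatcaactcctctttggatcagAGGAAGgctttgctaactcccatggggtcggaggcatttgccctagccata

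The next pair shows the CTCF motif in capitals, forward in the peak next to Myc and reversed in the peak upstream of Tcf7, at 1889 and 14340 bp from these genes.
Myc upstream peak, chr15:61814957-61815156: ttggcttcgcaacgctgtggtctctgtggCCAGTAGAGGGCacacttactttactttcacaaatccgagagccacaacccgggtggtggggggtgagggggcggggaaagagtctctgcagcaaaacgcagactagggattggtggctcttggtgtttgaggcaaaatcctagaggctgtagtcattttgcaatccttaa
Tcf7 upstream peak, chr11:52110921-52111120: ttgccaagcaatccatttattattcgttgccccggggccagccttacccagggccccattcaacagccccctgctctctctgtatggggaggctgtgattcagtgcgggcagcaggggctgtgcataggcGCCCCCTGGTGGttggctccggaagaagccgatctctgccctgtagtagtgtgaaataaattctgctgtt

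The last 3 are the centre of the widest upstream peak with the CTCF motif in capitals, the centre of the widest peak beyond a 3′ end, which holds no CTCF motif, and the single facing pair of the canonical RBPJ word with both words in capitals.
U2 upstream peak, chr12:60137830-60138029: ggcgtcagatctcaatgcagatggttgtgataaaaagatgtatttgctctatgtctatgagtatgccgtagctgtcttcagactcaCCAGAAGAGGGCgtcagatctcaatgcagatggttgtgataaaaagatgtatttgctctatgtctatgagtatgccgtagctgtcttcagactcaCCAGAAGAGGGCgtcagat
U1 3′ peak, chr3:96304546-96304745: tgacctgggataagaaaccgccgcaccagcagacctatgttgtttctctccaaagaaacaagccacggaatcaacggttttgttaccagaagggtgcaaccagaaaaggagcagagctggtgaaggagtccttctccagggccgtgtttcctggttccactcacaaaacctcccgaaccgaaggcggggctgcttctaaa
Trim2 upstream peak, chr3:84149102-84149208: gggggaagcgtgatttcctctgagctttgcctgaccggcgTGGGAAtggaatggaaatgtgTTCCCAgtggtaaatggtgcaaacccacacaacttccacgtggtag

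The intergenic peaks were narrow and low in CpG. Their median width was 463 bp, with the central 50% between 385 and 616 bp and the extremes at 216 and 3151 bp. Only 404 of them (5.35%) were wider than 1 kb. The median GC content was 49.9% and the median CpG ratio 0.223, values that the selection itself bounds. The median distance from the peak edge to the nearest start was 12795 bp. At the selection limits, the 3 nearest peaks inside lay 1002 to 1006 bp from a start and the 3 nearest outside 999 to 1000 bp, while at the far limit the nearest lay at 49957 to 49986 bp inside and 50043 to 50070 bp outside.

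Each peak was assigned to the nearest end of any annotated gene. The nearest end was a 5′ end for 3847 peaks (50.9%), called upstream below, and a 3′ end for 3710 peaks (49.1%). It belonged to a protein-coding gene for 5549 peaks (73.4%). Other nearest ends were those of pseudogenes for 496 peaks, lincRNA genes for 299 and snRNA genes for 253. By the genes on both sides, 3942 peaks lay in gaps between genes of the same direction, 1968 between diverging genes, 1637 between converging genes and 10 at a chromosome end.

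The stretch near genes was richer in such peaks than the remote intergenic genome. Density was 11.1 peaks per Mb over the 679.6 Mb of sequence that met the conditions on position, and 3.04 per Mb over the 686 Mb of intergenic sequence farther than 50 kb from a start. The ratio was 3.66, and the density was higher near genes on 19 of 19 autosomes (exact signed-rank p = 3.81e-06). Among the autosomes, chromosome 14 had the lowest density with 7.29 peaks per Mb and chromosome 15 the highest with 18.98 per Mb. How much of each stretch short reads can be placed on was not tested.

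Sequence beyond 3′ ends held more peaks per Mb than sequence upstream of 5′ ends. There were 11.7 peaks per Mb beyond 3′ ends (12.1 ± 3.28, SD over 19 autosomes) and 10.6 per Mb upstream (10.9 ± 2.64), a ratio of 1.10. Density was higher beyond 3′ ends on 16 of 19 autosomes (exact signed-rank p = 0.000523). With start distance taken from the peak centre instead of its edge, the ratio was 1.09 (exact signed-rank p = 0.000965). The direction of this small difference depended on how sides were defined. When each peak was instead assigned by the nearest transcript start, density was 11.5 per Mb upstream of the start and 10.6 per Mb downstream of it (exact signed-rank p = 0.0494). Gaps between diverging genes held 11.6 peaks per Mb and gaps between converging genes 11.5 per Mb (exact signed-rank p = 0.953).

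Sorted by distance to the nearest gene end, the difference between the sides lay within 5 kb and turned past 20 kb. In the first kb beyond a 3′ end, where nothing upstream can be counted, there were 17.7 peaks per Mb. At 1 to 2 kb from the gene end, density was 17.5 per Mb beyond 3′ ends and 9.58 per Mb upstream, with 3′ ends higher on 19 of 19 autosomes (exact signed-rank, adjusted p = 3.81e-05). A part of that gap follows from the selection, since a peak whose edge reaches within 1 kb of a start is left out and a wide peak needs its centre farther away. With distance taken from the centre, which adds such peaks, the values were 17.6 and 13.3 per Mb, with 3′ ends higher on 18 of 19 autosomes (exact signed-rank, adjusted p = 0.000134).

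At 2 to 5 kb the densities were 15.8 per Mb beyond 3′ ends and 12.0 per Mb upstream (17 of 19 autosomes, exact signed-rank, adjusted p = 0.000267). At 5 to 10 kb they were 13.4 and 13.8 per Mb, and at 10 to 20 kb 11.003 and 11.567 per Mb, and neither pair differed beyond the spread over autosomes (adjusted p = 0.631 and 0.415, exact signed-rank). Past 20 kb the order was the opposite, 6.78 per Mb beyond 3′ ends and 8.04 per Mb upstream (exact signed-rank, adjusted p = 0.0319). Beyond 3′ ends density therefore fell at each step from the gene, while upstream it was highest at 5 to 10 kb. The upstream rise depended on the edge rule. With distance taken from the centre, upstream density was 13.3 per Mb at 1 to 2 kb, 12.0 at 2 to 5 kb and 13.8 at 5 to 10 kb. The shape of these profiles was not tested.

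**Figure D1:**
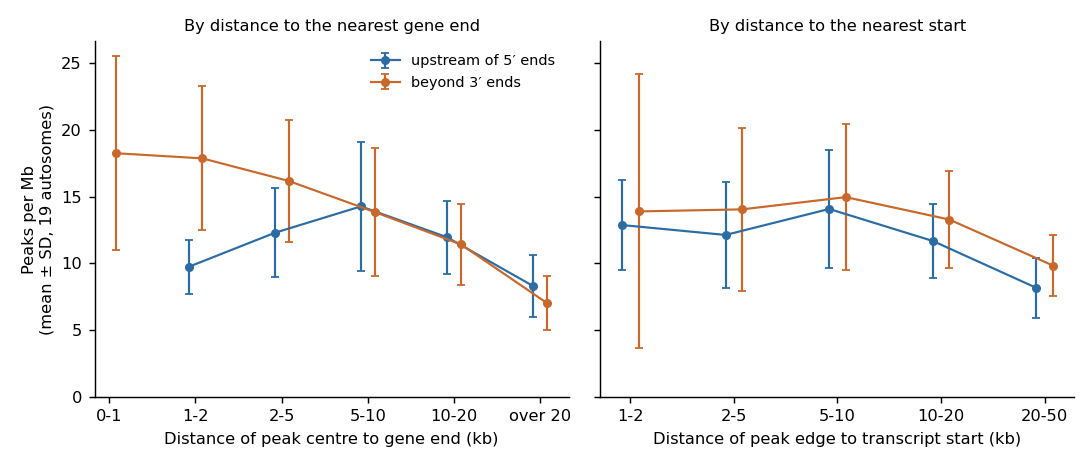
Density of CpG-poor intergenic peaks (peaks per Mb of sequence at the same distance, mean ± SD over 19 autosomes) by distance in kb to the nearest gene end (left) and to the nearest transcript start (right), upstream of 5′ ends in blue and beyond 3′ ends in orange. On the left the orange points lie above the blue ones at 1 to 5 kb and lie close to them from 5 kb on and below them past 20 kb, whereas on the right the orange means are higher in every class and the SD bars overlap.

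Sorted by distance to the nearest start, the side beyond 3′ ends was denser in each of the 5 classes. The difference passed the threshold at 10 to 20 kb, with 13.0 against 11.3 peaks per Mb (exact signed-rank, adjusted p = 0.0319), and at 20 to 50 kb, with 9.46 against 7.92 per Mb (exact signed-rank, adjusted p = 0.00112). At 1 to 2 kb the densities were 13.5 and 12.8 per Mb, and the spread over autosomes beyond 3′ ends was wide there (SD 10.3), where 8.46 Mb of such sequence held 114 peaks.

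Peaks gathered at genes whose own promoter was accessible. A coding gene was counted as having a promoter peak when any peak of the list lay within 1 kb of one of its starts, which held for 47.6% of the 21418 autosomal coding genes. Upstream sequence of such genes held 20.8 intergenic peaks per Mb (20.9 ± 3.99, SD over 19 autosomes), and upstream sequence of genes without a promoter peak 7.82 per Mb (8.13 ± 2.64). The ratio was 2.65, and the density was higher at genes with a promoter peak on 19 of 19 autosomes (exact signed-rank p = 3.81e-06).

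The sequence beyond the 3′ ends behaved alike in size. It held 24.7 peaks per Mb (24.4 ± 5.60) at genes with a promoter peak and 9.05 per Mb (9.55 ± 3.02) at genes without one, a ratio of 2.73 that again recurred on 19 of 19 autosomes (exact signed-rank p = 3.81e-06). The log2 ratio differed between the sides by 0.011 ± 0.282 (SD over 19 autosomes, upstream minus 3′; exact signed-rank p = 0.953). With peaks and sequence within 5 kb of any start left out, a choice made after the data were seen, the ratios were 3.04 upstream and 2.79 beyond 3′ ends, and the difference of their log2 values was 0.16 ± 0.36 (exact signed-rank p = 0.0230).

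On both sides the ratio was highest at the far end. Upstream it was 1.84 at 1 to 2 kb from the start, 1.60 at 2 to 5 kb and 3.41 at 20 to 50 kb. Beyond 3′ ends it was 2.41, 2.53 and 3.21 in the same classes. These values are given without a test of the trend. Promoter peaks and intergenic peaks come from 1 list, and the part of gene density along the chromosomes in the ratio was not tested.

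**Figure D2:**
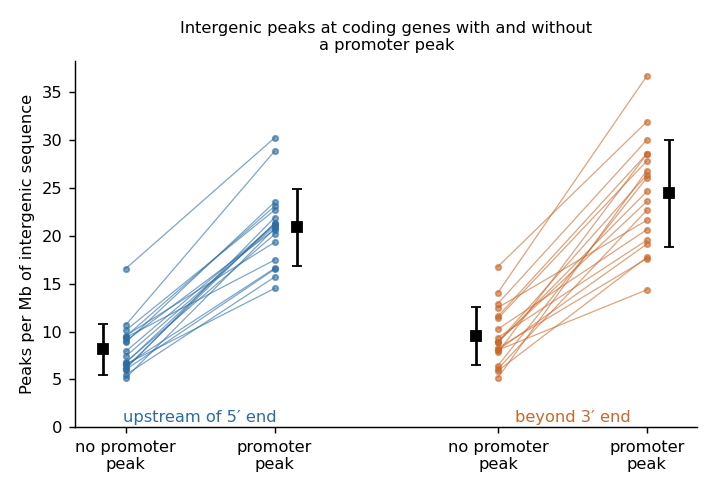
Intergenic peaks per Mb at coding genes without and with a promoter peak, upstream of the 5′ end (blue) and beyond the 3′ end (orange). Each line joins the 2 values of 1 autosome and the squares with bars give mean ± SD over 19 autosomes. Every line rises from left to right.

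Width did not separate the sides. The median was 459 bp upstream and 466 bp beyond 3′ ends, and the mean difference of the medians per autosome was -1.97 ± 20.6 bp (exact signed-rank p = 0.595). Upstream peaks more often had another peak of the list within 5 kb, 32.8% against 27.9%, a difference of 4.95 ± 5.43 percentage points that had the same sign on 16 of 19 autosomes (exact signed-rank p = 0.00169). Counting only other intergenic peaks of the same kind as neighbours, so that promoter peaks were left out, the shares were 23.0% and 21.7% (exact signed-rank p = 0.352). That comparison was added after the data were seen.

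The 5 widest upstream peaks lay near a U2 snRNA gene, Csrnp1, a 7SK gene, Aqp11 and Il20ra, with widths of 1994 to 3151 bp. The peak near U2, at chr12:60136355-60139505, was a tandem array: shifted by 95 bp, its sequence matched itself at 100% of positions, and it held 33 CTCF motifs. The repeat unit can be read off the sequence printed for it, in which the capitals recur after 95 bp. The other 9 of the 10 widest peaks matched themselves at no more than 30.6% of positions at any shift tried. Self-matches of at least 80% were found in 16 of the 7557 peaks (0.212%). Reads from such repeats cannot be assigned to 1 copy.

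The 5 widest peaks beyond 3′ ends were 1832 to 2481 bp wide. Their nearest genes were a U1 snRNA gene, a U6 snRNA gene, the noncoding genes 4930578M01Rik and 9430024E24Rik, and Dhx37, which encodes an RNA helicase. No CTCF motif lay in the central 200 bp of any of these 5.

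Most gaps between genes that held an intergenic peak held 1. Of 4618 such gaps, 2937 had 1 peak and 1681 had more. The fullest, 73.3 kb between 2010109I03Rik and Ly6e, had 11. Ly6e encodes a surface protein of the Ly6 family that immature thymocytes carry. The next, 74.7 kb on chromosome 11, had 10, of which 6 lay nearest to Tcf7 among coding genes and 4 nearest to Vdac1. Tcf7 encodes TCF1, a factor that starts the T-cell program downstream of Notch.

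The 6 peaks next to Tcf7 had their centres 9739 to 35443 bp upstream of it, with the noncoding gene A630014C17Rik in between. Of these 6, 3 held the core CAGCTG in the central 200 bp and 2 held the CTCF motif. A gap of 228.5 kb between the noncoding genes SNORA61 and AC114668.1 had 9 peaks. The nearest coding gene end was that of Lef1 for 5 of the 9, at 16680 to 55817 bp upstream of it, and Lef1 encodes a factor of the same family as TCF1. Gaps were counted after the selection and differ in length, so these counts were not compared with others.

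Coding genes with several intergenic peaks at 1 end were few. At the 5′ side, Thy1 had 8, Lta4h and Ly6e 7 each and Itm2b 6, and 19 genes had 5 or more. Thy1 encodes a surface glycoprotein of T cells, Lta4h an enzyme of leukotriene synthesis and Itm2b a membrane protein. Of these 4 genes, Lta4h had no promoter peak. At the 3′ side, Prex1, an activator of Rac GTPases, had 6, and Alox12e, Azin1, Psma6 and Zfp36l2 had 5 each. Azin1 regulates polyamine synthesis, Psma6 is a proteasome subunit and Zfp36l2 an RNA-binding protein with a role in thymocyte development.

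Many listed genes of the T-cell lineage and the Notch pathway had such peaks. The genes and lists were chosen with earlier results of these data known, so the shares describe the listed genes only. Of 48 matched genes of a list of 50 (Ptcra and Gfi1 were not matched as coding genes), 27 (56.3%) had at least 1 intergenic peak for which their end was the nearest, whereas 17.8% of all autosomal coding genes did. At the 5′ side, 17 of the 48 genes had 1 or more, against 9.91% of all coding genes, and at the 3′ side 15 had, against 9.59%. By nearest coding gene end, which passes over noncoding genes, 33 of the 48 (68.8%) had a peak, against 21.6% of all coding genes. A promoter peak was present at 45 of the 48. Among all coding genes with a promoter peak, 22.0% had an intergenic peak by nearest gene end and 26.8% by nearest coding gene end.

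A list of B-cell and myeloid genes gave 3 of 19 (15.8%), and a list of genes of unrelated tissues 3 of 20 (15%). By nearest coding gene end the counts were 5 of 19 (26.3%) and 4 of 20 (20%), against the same 21.6% of all coding genes. Promoter peaks were present at 2 of the 19 and 3 of the 20. The 3 genes of unrelated tissues were Ins2, Gcg and Krt14, which encode insulin, glucagon and a keratin. Lists were not tested, and the genes differ in length and in the size of the gaps around them.

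Among genes of surface proteins, Thy1 had 8 upstream peaks, spread from 2178 to 49453 bp from its start. The ETS core was in the central 200 bp of 4 of the 8 peaks, and the cores of RUNX factors and E proteins were in none. Cd8a and Cd8b1, the genes of both chains of the CD8 coreceptor, lie next to each other in the same direction. Cd8b1 had 3 peaks beyond its 3′ end at 439, 3940 and 16389 bp, and Cd8a had 2 upstream at 3843 and 12467 bp, so that all 5 lay in the gap between them. Both peaks upstream of Cd8a held the RUNX core.

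Ccr7, the receptor that guides cells to lymphoid tissue, had 1 peak upstream at 8066 bp and 2 beyond its 3′ end at 7554 and 20124 bp. Lat, the adaptor of T-cell receptor signaling, had 3 beyond its 3′ end at 6685 to 23926 bp. Il2ra, the α chain of the interleukin-2 receptor, had 2 upstream peaks at 5483 and 6701 bp and was among the 3 matched genes of the list without a promoter peak. Cd3e and Cd6 had 1 peak on each side, and the 3′ ones lay 390 and 934 bp past the gene. Cd69, an early activation marker, also had 1 on each side, at 9287 bp upstream and 12074 bp beyond, and Cd2, an adhesion molecule, had 1 at 918 bp beyond its 3′ end.

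Among genes of transcription factors, Ets1 had 4 upstream peaks at 20054 to 46116 bp and Satb1, a chromatin organizer of thymocytes, had 3 at 46315 to 49467 bp. The peak of Ets1 printed among the sequences held all 4 cores. Tcf3, which encodes the E proteins E12 and E47, had 2 upstream peaks at 10952 and 12600 bp. Id2, an inhibitor of E proteins, had 1 peak on each side, and Tox, a factor of CD4 lineage development, had 2 beyond its 3′ end at 4323 and 11185 bp. Erg had 1 at 18948 bp upstream, and it held the CTCF motif.

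Among the Notch targets and regulators, Hey1 had 2 peaks beyond its 3′ end at 31406 and 39678 bp, and 5 by nearest coding gene end, and Dtx1 1 upstream at 2521 bp. Hes1 had none by the nearest gene end but 5 by the nearest coding gene end, 4 of them 25027 to 41624 bp upstream of it next to the noncoding gene 4632428C04Rik. Myc, a direct Notch target in T-cell leukemia, had 1 at 1889 bp upstream, which carried the CTCF motif printed above. By nearest coding gene end Myc had 5 more beyond its 3′ end, 1 at 41684 bp next to the noncoding gene Pvt1 and 4 at 762480 to 819088 bp next to a SNORA17 gene. Bcl2, an inhibitor of apoptosis, had 2 beyond its 3′ end, and Socs1, an inhibitor of cytokine signaling, had 2. Bcl11b, needed for T-cell commitment, had 6 by nearest coding gene end, 77729 to 111479 bp beyond its 3′ end. Hes1, Myc, Bcl11b, Tcf7 and Lef1 were chosen for description with their values already seen.

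**Figure D3:**
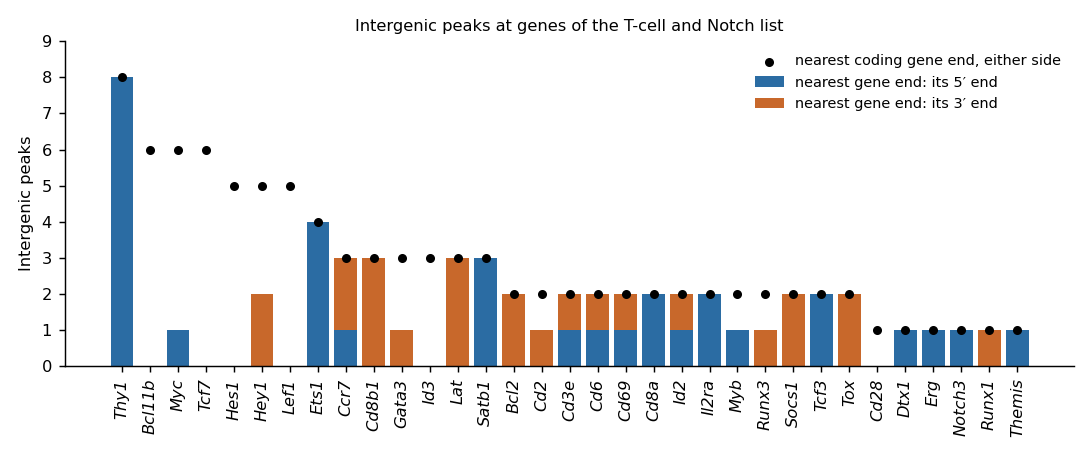
Number of intergenic peaks at each gene of the T-cell and Notch list that had any, by nearest end of any gene (bars, 5′ end blue, 3′ end orange) and by nearest coding gene end (black points). Thy1 has 8 by both counts, and for Bcl11b, Myc, Tcf7, Hes1, Hey1 and Lef1 the points at 5 or 6 stand far above the bars because a noncoding gene lies closer to the peaks.

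Motif cores were counted in the central 200 bp of each peak on both strands and in 200 bp windows 2 kb to either side that met no peak. There were 14691 such flanks. They had a GC content of 46.0%, against 51.5% in the peak centres, and were not bound by the CpG limit. A match is a word in the sequence and not a bound site. Some words overlap others: the canonical RBPJ word is 1 case of the wider one, the ETS and NFAT cores share letters, the RUNX core can run into an E-box or an ETS core, and the CTCF motif can contain the E-box CACCTG or the SP core.

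The CTCF motif stood apart from the rest. It was present in 1404 peak centres (18.6%) and in 2.22% of flanks, a ratio of 8.37 (higher on 19 of 19 autosomes, exact signed-rank, adjusted p = 7.63e-06). Allowing for GC content, its odds ratio was 11.1 (95% interval 8.92 to 13.9). Of all 31879 autosomal peaks, 12.0% held it, and of the 11194 peaks within 1 kb of a start 5.18%. The motif lay near the middle, with a median distance of 35 bp from the peak centre and 69.9% of 1442 motifs within 50 bp. That stretch makes up 50% of the 200 bp searched. Since a motif must fit whole in the window, an even spread would put somewhat more than 50% there.

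Cores of lineage factors were more frequent in peaks than in flanks. The E-box CAGCTG was in 24.5% of peaks and 9.52% of flanks, the E-box CACCTG in 27.1% and 15.3%, the ETS core AGGAAG in 36.6% and 23.3%, and the RUNX core TGTGGT in 24.3% and 16.2%. Each was higher in peaks on 19 of 19 autosomes (exact signed-rank, adjusted p = 7.63e-06). At equal GC content the odds ratios were 2.16, 1.72, 1.63 and 1.69. Their shares over all autosomal peaks were 21.3%, 23.5%, 32.7% and 19.99%. Of these 4 cores, 2 were present in 1879 peaks (24.9%, flanks 10.4%), 3 in 496 (6.56%, flanks 1.19%) and all 4 in 46 (0.609%, flanks 0.0476%). No core at all was found in 27.3% of peaks, against 48.6% of flanks.

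The TCF/LEF core CTTTGA was in 16.4% of peaks and 13.2% of flanks (18 of 19 autosomes, exact signed-rank, adjusted p = 1.36e-05), and 13.1% of all autosomal peaks held it. The MYB core AACTGNC was in 11.5% and 8.68%, and the SP core GGGCGG in 8.89% and 3.27% (both 19 of 19 autosomes, exact signed-rank, adjusted p = 7.63e-06). Over all autosomal peaks the shares were 9.77% for MYB and 23.3% for SP. The odds ratios at equal GC content were 1.43 for TCF/LEF, 1.52 for MYB and 1.42 for SP. The CRE TGACGTCA was rare, in 30 peaks (0.397%) and 0.191% of flanks (exact signed-rank, adjusted p = 0.0213), and its odds ratio at equal GC content, 1.21, had an interval of 0.658 to 2.23. Over all autosomal peaks its share was 0.772%.

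The RBPJ word TGGGAA was less frequent in peaks than in flanks, 17.1% against 19.03%, lower on 16 of 19 autosomes (exact signed-rank, adjusted p = 0.00454). Allowing for GC content, the odds of the word were 0.853 times those in flanks (95% interval 0.773 to 0.941). Over all autosomal peaks its share was 15.3%. The wider form TGRGAA was in 31.1% of peaks and 32.2% of flanks (exact signed-rank, adjusted p = 0.192), and in 26.9% of all autosomal peaks. No bound state of RBPJ follows from these shares, since the list does not measure binding.

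For 5 further cores, as for the CRE and TGRGAA above, the comparison turned on base composition or did not pass the threshold. The GATA core AGATAA was in 8.89% of peaks and 9.89% of flanks (exact signed-rank, adjusted p = 0.0180), but at equal GC content its odds ratio was 1.28 (95% interval 1.11 to 1.47). The NFAT core GGAAAA was in 12.6% and 15.9%, lower in peaks on 19 of 19 autosomes (exact signed-rank, adjusted p = 7.63e-06), and its odds ratio at equal GC content was 0.996 (0.889 to 1.12). AP-1 (TGANTCA), IRF (GAAANNGAA) and STAT (TTCNNNGAA) were in 6.55%, 6.15% and 5.60% of peaks and in 6.25%, 6.19% and 5.47% of flanks, without a difference past the threshold (exact signed-rank, adjusted p = 0.712, 0.851 and 0.984). At equal GC content the odds ratios were 1.01, 1.39 and 1.37, of which the last 2 passed it. All autosomal peaks held GATA, NFAT, AP-1, IRF and STAT at 6.85%, 11.2%, 4.98%, 5.44% and 4.84%.

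**Figure D4:**
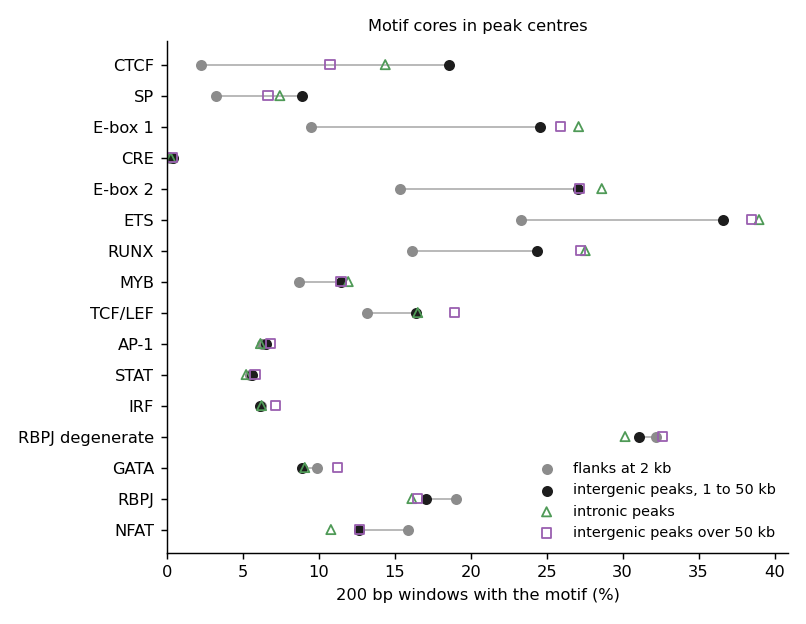
Share of 200 bp windows with each motif core (%) in CpG-poor intergenic peaks 1 to 50 kb from starts (black), their flanks at 2 kb (grey), CpG-poor intronic peaks (green triangles) and CpG-poor intergenic peaks over 50 kb from starts (violet squares). Cores are ordered by the ratio of black to grey, E-box 1 is CAGCTG and E-box 2 CACCTG. The longest gap between grey and black in relation to its level is that of CTCF, where the black point also lies beyond the triangle and the square.

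No core separated upstream peaks from those beyond 3′ ends once 16 motifs were allowed for, and 2 passed an unadjusted p of 0.05. These were ETS, in 38.1% of upstream peaks and 35.0% of those beyond 3′ ends, and TCF/LEF, in 18.01% and 14.69% (for each, exact signed-rank p = 0.0124, adjusted p = 0.0989). The differences were 3.01 ± 4.78 and 2.59 ± 4.26 percentage points (SD over 19 autosomes). CTCF was in 17% upstream and 20.2% beyond 3′ ends (exact signed-rank p = 0.134, adjusted p = 0.500). CAGCTG was in 24.5% on either side and RUNX in 24.3% and 24.4%.

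Peaks with the CTCF motif differed from the others in further ways. They were narrower, with a median of 415 bp against 481 bp (lower on 19 of 19 autosomes, exact signed-rank, adjusted p = 2.54e-05). With the CTCF motif itself masked, they held CAGCTG in 14.2% against 26.8%, ETS in 26.9% against 38.7% and RUNX in 16.3% against 25.6%, lower on 19, 19 and 16 of 19 autosomes (exact signed-rank, adjusted p = 2.54e-05, 2.54e-05 and 0.000699). CACCTG was in 18.2% against 26.7% and TCF/LEF in 12.1% against 17.4% (exact signed-rank, adjusted p = 3.81e-05 and 0.00533). Masking takes letters only from windows with the motif. RBPJ was in 18.02% against 16.7% (exact signed-rank, adjusted p = 0.626) and MYB in 11.5% against 11.3% (adjusted p = 0.490, exact signed-rank).

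Peaks with the CTCF motif were also less often next to an accessible promoter. Of those nearest to a coding gene end, 56.7% belonged to a gene with a promoter peak, against 62.0% without the motif, a difference of -6.81 ± 7.38 percentage points per autosome (exact signed-rank, adjusted p = 0.00335). A neighbour within 5 kb was present for 27.2% against 31.1% (exact signed-rank, adjusted p = 0.00969). Read the other way, the motif was in 18.3% of peaks at coding genes with a promoter peak and in 21.9% at those without, the only 1 of 16 motifs to differ (exact signed-rank, adjusted p = 0.0226). By distance to the nearest start its share was 14.6% at 1 to 2 kb, 20.9% at 5 to 10 kb and 15.8% at 20 to 50 kb. These splits by the CTCF motif were made after its share had been seen.

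**Figure D5:**
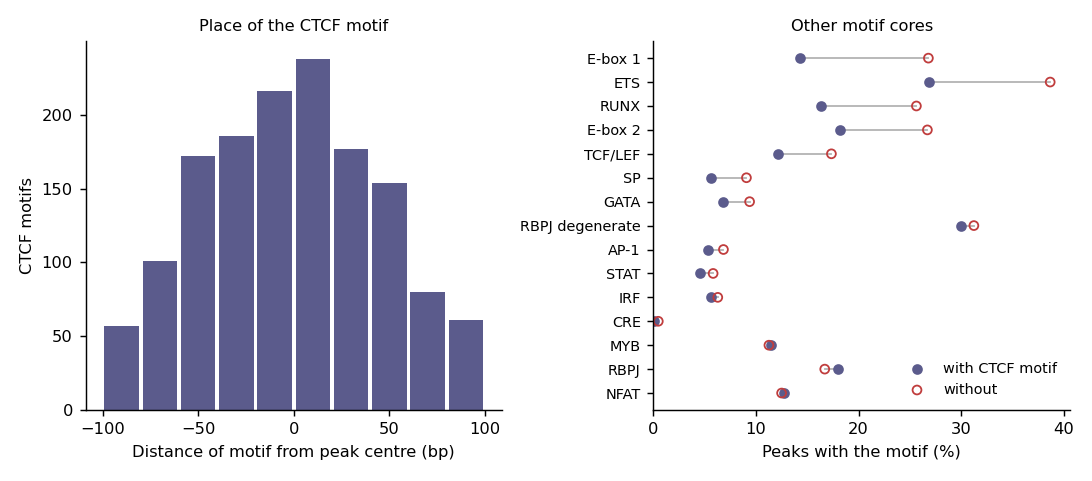
Left, number of CTCF motifs by distance in bp from the peak centre in classes of 20 bp. Right, share (%) of intergenic peaks with (filled) and without (open) the CTCF motif that hold each other core in the central 200 bp, with the CTCF motif masked; E-box 1 is CAGCTG and E-box 2 CACCTG. Motifs are most frequent in both classes next to the centre, and the open points for E-box 1, ETS, RUNX and E-box 2 lie to the right of the filled ones.

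The strand of the CTCF motif was uneven with respect to the nearest gene. Of 1395 peaks with motifs on 1 strand only, 630 (45.2%, Wilson 95% interval 42.6 to 47.8) had the motif reading towards the gene. Beyond 3′ ends the share was 42.1% of 746 peaks, above 50% on 1 of 19 autosomes (exact signed-rank p = 5.34e-05). Upstream it was 48.7% of 649 peaks (exact signed-rank p = 0.424). Whether the sides differ in this was not tested, and the question was asked after the data were seen.

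Facing pairs of RBPJ words, searched over the whole peak and not only its central 200 bp, were rare. The pair TGRGAA and TTCYCA with 15 to 17 bases between them, the spacing of paired Notch complexes, was in 21 peaks (0.278%, Wilson 95% interval 0.182 to 0.424), 9 upstream and 12 beyond 3′ ends. The same words back to back were in 11 peaks (0.146%, 0.0813 to 0.260). The difference did not pass the threshold (exact signed-rank p = 0.0947). In flanks of equal width the counts were 29 and 18 of 14496. With TGGGAA on both sides there was 1 facing pair and 1 back-to-back pair, and the facing one is printed above, in a peak 39900 bp upstream of Trim2, which encodes a ubiquitin ligase.

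Against CpG-poor intronic peaks, the intergenic ones more often held the CTCF motif and less often the cores of RUNX and ETS factors and the E-box CAGCTG. There were 9642 intronic peaks farther than 1 kb from a start, selected with the same CpG limit. CTCF was in 18.6% of intergenic and 14.4% of intronic peaks, higher on 19 of 19 autosomes (exact signed-rank, adjusted p = 6.87e-05 over 18 measures). RUNX was in 24.3% against 27.5%, CAGCTG in 24.5% against 27.1% and ETS in 36.6% against 39.0% (exact signed-rank, adjusted p = 0.000858, 0.00762 and 0.0214). The E-box CACCTG, at 27.1% against 28.6%, GATA, at 8.89% against 9.07%, and TCF/LEF, at 16.4% against 16.5%, did not pass the threshold (exact signed-rank, adjusted p = 0.0803, 0.782 and 0.764). SP and NFAT were higher in intergenic peaks, 8.89% against 7.44% and 12.6% against 10.8% (exact signed-rank, adjusted p = 0.0214 and 0.00762). Median widths were 463 and 461 bp (exact signed-rank, adjusted p = 0.555), and a neighbour within 5 kb was present for 30.4% and 28.2% (exact signed-rank, adjusted p = 0.0362).

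Against the 2086 CpG-poor intergenic peaks farther than 50 kb from a start, CTCF was again higher, 18.6% against 10.7% on 19 of 19 autosomes (exact signed-rank, adjusted p = 6.87e-05). Neighbours within 5 kb were more frequent, 30.4% against 23.1% (exact signed-rank, adjusted p = 0.00470). Any peak of the list counted as a neighbour. By selection, a peak over 50 kb from every start cannot have a promoter peak that close. With only peaks of their own kind as neighbours, the shares nearer to starts were 23.0% upstream and 21.7% beyond 3′ ends. Remote peaks were not compared in that way. No other of the 18 measures passed the threshold, with RUNX at 24.3% against 27.2% (exact signed-rank, adjusted p = 0.338) and SP at 8.89% against 6.66% (exact signed-rank, adjusted p = 0.0567). Among peaks of at least 500 bp CTCF was rarer in each group, 8.16% of intergenic, 6.58% of intronic and 4.44% of remote peaks. The differences per autosome were then 1.40 and 3.17 percentage points, against 4.39 and 7.75 among all peaks, and missed the threshold (exact signed-rank, adjusted p = 0.0612 and 0.0959). Against intronic peaks of that width, CAGCTG, ETS, NFAT and neighbours within 5 kb also missed it (adjusted p = 0.352, 0.598, 0.0612 and 0.598, exact signed-rank), and RUNX and SP passed it (adjusted p = 0.0121 and 0.00711, exact signed-rank). Median width, 668 against 645 bp, and MYB, 11.3% against 13.1%, passed it only there (exact signed-rank, adjusted p = 6.87e-05 and 0.0487).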

How the data were processed

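Chromatin accessibility was measured by ATAC-Seq in 6 Beko libraries. The authors trimmed reads with Trim Galore, aligned them to mm9 with HISAT2 2.2.1 with 1 alignment kept for each read, and took out duplicates in Picard. They ran MACS2 without input for peak calls, kept peaks found in 3 of 6 libraries and dropped blacklisted regions. The deposited list gives only the coordinates of merged peaks, so depth, signal and p-values per peak are not used here and no count of reads lies behind any value. Wilson 95% intervals cover counting error only.

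Distances and gene ends were taken from GENCODE vM1 and sequence from NCBIM37, the mm9 assembly. Densities divide the number of peaks by the length of sequence meeting the position rule, sampled every 10 bp. A peak was judged by its nearest edge, and a sampled base by its own position. Paired differences per autosome were tested with the exact signed-rank test and adjusted by Benjamini-Hochberg within a family (16 motifs, 18 measures against other peak classes, 20 measures of the split by CTCF motif, 10 distance classes, or 5 by peak centre). Odds ratios at equal GC content came from a conditional logistic model of each peak and 1 flank, which treats pairs as independent. Python 3.11.15, numpy 2.4.6, scipy 1.17.1, statsmodels 0.14.6 and pysam 0.24.0 were used, and the tests were checked on simulated data. The genes and lists were chosen with earlier results of these data known. Named were the 5 widest peaks of each side, the coding genes with most peaks at each end, up to 20 genes of the T-cell and Notch list with most peaks, and the peaks at the selection limits. The reference is not soft-masked, so the planned measures of repeat content were not run.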

Additional observations from a re-analysis of the deposited data

How the results depend on the processing

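No paired analysis was possible because the peak list carries no value for any single library, and no library could be left out. The higher density beyond 3′ ends kept its direction under 11 of 13 alternatives, counting the sign test, which cannot change direction. It reversed when sides were taken from the nearest transcript start, with an upstream to 3′ ratio of 1.08 (exact signed-rank p = 0.0494), and in diverging against converging gaps, with a ratio of 1.01 (p = 0.953, exact). By nearest start, 925 of the 3710 peaks beyond 3′ ends counted as upstream, and all 3847 upstream peaks stayed upstream. The cause of either reversal was not tested. The width difference, past no threshold, turned to 0.368 bp in diverging against converging gaps and to 0.684 bp at 2 to 20 kb from a start. The larger share of upstream peaks with a neighbour fell below the threshold for neighbours within 1 kb (0.430 percentage points), within 20 kb (2.48 points) and among other intergenic peaks only (1.01 points). At equal GC content the GATA core turned to a log odds of 0.244. With 5 to 30 bases between RBPJ words, facing pairs were the rarer by -0.211 points (exact signed-rank p = 0.369). Among peaks of at least 500 bp, 4 measures passed against intronic peaks in place of 7 (RUNX and SP in both, width and MYB only there), and 0 against remote peaks in place of 2, where 3 had an unadjusted exact signed-rank p under 0.05; fewer peaks entered both. Density ratios at genes with against without a promoter peak stayed between 2.45 and 3.04. The alternatives on distance to gene ends, distance mix, the CpG limit, promoter state, distance from the peak centre, over 5 kb from every start, neighbours of the same kind and flank pairs were chosen after seeing the data. Repeat content and windows free of soft-masked bases were not run, since the reference carries no soft-masking. Whether reads can be placed equally on all sequence compared, and which peaks depend on the treatment, cannot be read from the list.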
